A study of Mus musculus with 6 samples.

Results

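The livers of Apoe-deficient mice fed a Western diet with or without squalene were examined here for 40 genes that encode complement and coagulation proteins of the kind the liver secretes into plasma. The 40 were taken from a list of symbols set by function, and each was read on its brightest probe. All 40 of the 40 listed genes had a probe and passed the filter on dim probes, out of 20658 features tested on the array. All 40 were also well above background in all 4 pool pairs in both diets. The mice were male, on the C57BL/6J background, and every animal of both groups carried the Apoe deficiency. The 9 control mice ate a purified Western diet made with 20% palm oil and 0.15% cholesterol, and 10 mice ate that diet with 1% squalene, given as a dose of 1 g/kg, for 11 weeks. Squalene is a hydrocarbon of olive oil and shark liver oil and an intermediate of cholesterol synthesis, and mice without Apoe clear plasma lipoproteins poorly. No group on ordinary chow is analysed here, so both groups share the fat load and the missing Apoe. Liver RNA was combined into 4 pools per diet, each of 2 or 3 animals, and each squalene pool was set against 1 Western pool on 2-colour arrays. There were 6 arrays for 4 pool pairs, because pairs 1 and 2 were each measured on 2 slides. The value called the diet ratio is the log2 of squalene over Western within a pair, and n is 4 pool pairs throughout.

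Complement is a cascade of plasma proteins that mark and lyse targets. The lectin and classical routes begin with recognition proteins and their serine proteases, the alternative route amplifies through C3, factor B and factor D, and all routes meet at C3 and continue to the terminal proteins that form the membrane attack complex. Coagulation is a second protease cascade in which contact factors and vitamin K-dependent factors lead to thrombin, which turns fibrinogen into fibrin. Hepatocytes make most of the proteins of both cascades, and several of them, such as C3 and fibrinogen, belong to the acute phase response. Factor D is made mainly by fat cells and properdin mainly by myeloid cells.

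None of the 40 members passed the test at a Benjamini-Hochberg adjusted p under 0.05 with limma, and 0 of the 20658 features did (0%). The members were split evenly, with 20 means above 0 and 20 below, where 51.8% of all features were above 0. Their median diet ratio was -0.0050, against 0.0029 over all features, and the median size of the ratio was 0.051 against 0.043. At an unadjusted p under 0.05 there were 2 members, Cfd on the lower side and F9 on the higher side. Over all features 2.46% reached that level, 1.05% on the higher and 1.42% on the lower side, or 509 features, and the count of 2 among 40 is not read as a result about the members. No member was above 0 in all 4 pairs, where 3.34% of features were, and 1 was below 0 in all 4, Mbl1, where 3.05% were. For 37 of the 40 members the 95% interval of the diet ratio lay within 1.5-fold either way, and 96.6% of all features had such an interval. The exceptions were Cfd, Cfp and F11. Leaving Cfd aside, the other members, Cfp among them, had means between -0.14 and 0.16.

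Per channel, 48.7% to 54.2% of spots exceeded the background clearly, and 0 spots were saturated. Of the 12 hepatocyte markers looked at, 12 were well above background in all 4 pairs in both diets, as the liver label requires. Repeat arrays of 1 pool pair differed over the members by a median of 0.078 in pair 1 and 0.060 in pair 2, while the SD between pool pairs had a median of 0.20 over the members. An absolute difference between repeat arrays and an SD over pool pairs are unlike measures. Repeat arrays also share pools and dyes, while the SD between pairs includes the dye orientation, so these values do not separate pools from dye. The labels describe pools of separate animals, and a pool averages over its animals. The fit has a term for the dye, so p-values rest on the moderated spread between pool pairs within a dye orientation. They do not rest on the SD over all 4 pairs, which for C3 was 0.72 beside an SE of 0.13. Differences between pools that follow the orientation are thus left out of that spread. In RNA of a whole liver, fewer cells of a type and less RNA per cell cannot be told apart.

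**Figure D1:**
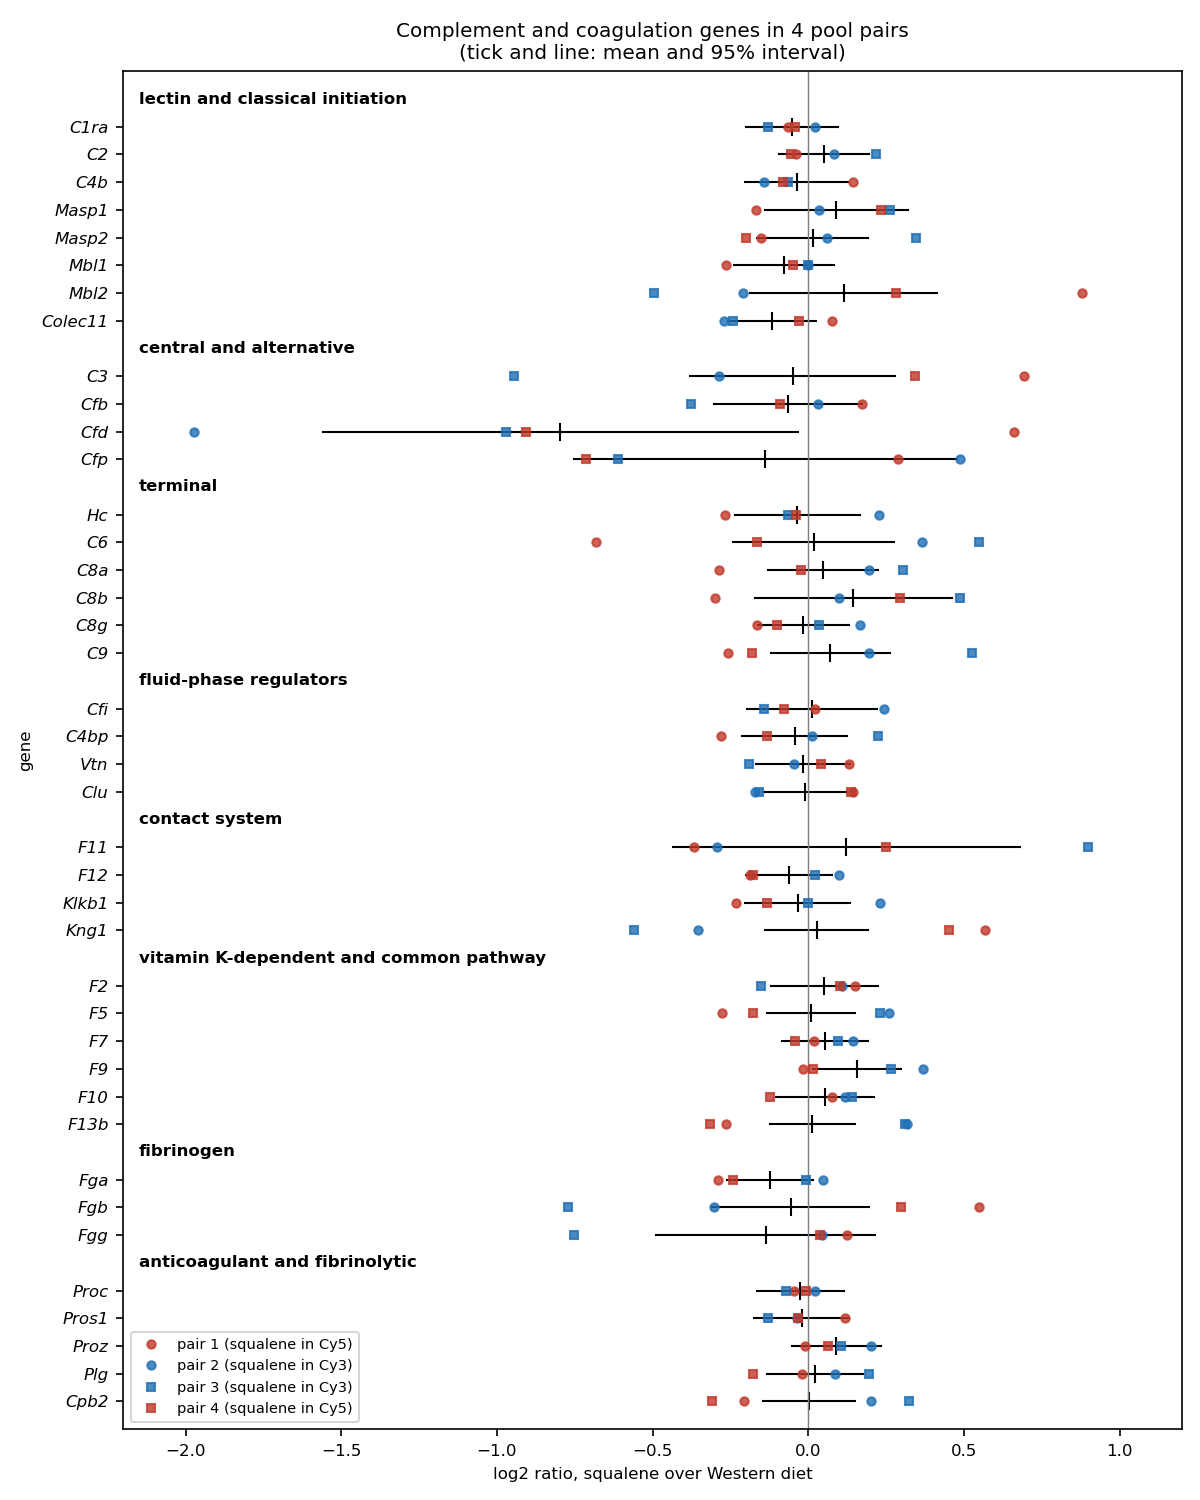
The diet ratio (log2, squalene over Western) of the 40 genes in each of 4 pool pairs, grouped by role, with red points for the pairs with squalene in Cy5 and blue for those with squalene in Cy3; the tick and line are the mean and its 95% interval from limma. Most means lie near 0, Cfd lies at -0.80, and in C3, Mbl2, Fgb and Kng1 the red points lie to the right of the blue ones.

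Of the 8 genes of lectin and classical initiation, 4 had means above 0 and 4 below, and 0 reached an unadjusted p under 0.05. Mbl2, the mannose-binding lectin C that recognises sugars on microbes, had the highest mean of the group. Its diet ratios in pairs 1 to 4 were 0.88, -0.21, -0.50 and 0.28, with a mean of 0.11 ± 0.60 (SD, n = 4). Pairs 1 and 4 were above 0 and pairs 2 and 3 below. Colec11, a collectin that also starts the lectin route, had the lowest mean at -0.12 ± 0.17 (SD, n = 4), from 0.076, -0.27, -0.24 and -0.030 in pairs 1 to 4. Mbl1, the mannose-binding lectin A, was the only member with 1 sign in every pair, at -0.26, -0.0014, -0.00052 and -0.048. Pair 1 carried nearly all of its mean of -0.078 ± 0.13 (SD, n = 4), and the other three lay close to 0. Without pair 1 the fitted diet ratio of Mbl1 was -0.024 and the plain mean of the 3 pairs left was -0.017. Fitted values with a pair left out weight the dye orientations equally, so the lone pair of an orientation counts as much as the other 2 together. The remaining genes of the group were C1ra, a classical-route protease, C2 and C4b, whose products join into a C3 convertase, and Masp1 and Masp2, the lectin-route proteases, with means from -0.054 to 0.090.

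All 4 genes of the central step and the alternative route had means below 0. C3, the protein on which every route converges, gave 0.69, -0.29, -0.94 and 0.34 in pairs 1 to 4, with a mean of -0.050 ± 0.72 (SD, n = 4). On the log2 intensity scale the squalene pools 5 to 8 were at 17.94, 17.48, 17.07 and 17.85 for C3 and the Western pools 1 to 4 at 17.25, 17.77, 18.01 and 17.51. The ranges of the diets overlapped almost entirely. Without pair 3 the fitted ratio of C3 was 0.11 and the plain mean 0.25. Without pair 4 these were 0.038 and -0.18, so there the sign turned with the dye weighting alone. Cfb, the protease of the alternative C3 convertase, had a mean of -0.065 ± 0.23 (SD, n = 4).

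Cfd encodes factor D, also called adipsin, the protease that cleaves factor B. Its log2 intensities were 10.36, 8.09, 7.58 and 9.17 in squalene pools 5 to 8 and 9.70, 10.06, 8.55 and 10.08 in Western pools 1 to 4. Squalene pool 5 was the highest of the 8 pools and squalene pools 6 and 7 were the lowest, so the diets overlapped. The diet ratios of pairs 1 to 4 were 0.66, -1.97, -0.97 and -0.91, which means that 3 of 4 pairs were below 0. The mean was -0.80 ± 1.09 (SD, n = 4), a 1.74-fold lower level, with SE 0.30, a 95% interval from -1.56 to -0.034, an unadjusted limma p of 0.044 and an adjusted p of 1.00. With each pair left out, the fitted ratio lay between -1.19 without pair 1 and -0.41 without pair 4, and the plain mean between -1.28 without pair 1 and -0.40 without pair 2. The unadjusted limma p was 0.0054, 0.17, 0.030 and 0.14 with pairs 1 to 4 left out in turn. It was 0.080 without a term for the dye, 0.205 with robust and trended moderation and 0.0023 with the deposited table. The lowest adjusted p of Cfd under any alternative was 0.87. Over pairs 1 and 2 the mean was -0.63 on slide 1 and -0.68 on slide 2. Repeat arrays, which share pools and dyes, differed by 0.014 in pair 1 and 0.076 in pair 2. The 250 bases before the transcription start of Cfd, on the plus strand at chr10:79890603-79890852 of GRCm38.p6 in the RefSeq promoter table, are shown because it is the member with the largest mean; none of the 3 motifs searched occurs in this window.
Cfd: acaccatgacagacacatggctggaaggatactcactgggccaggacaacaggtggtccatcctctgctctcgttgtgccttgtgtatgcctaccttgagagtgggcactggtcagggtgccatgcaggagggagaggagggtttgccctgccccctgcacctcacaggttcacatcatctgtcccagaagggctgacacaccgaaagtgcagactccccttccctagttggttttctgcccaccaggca

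The genes of the adipocyte list that could be measured, 2 of 6, were set beside Cfd. Cidec, a lipid droplet protein, gave 0.20, -0.94, -1.19 and -0.30 in pairs 1 to 4, with a mean of -0.56. Fabp4, a fatty acid carrier, gave 0.52, -0.17, -0.24 and -0.12. As with Cfd, pair 1 was the only pair above 0 in both. The defining fat cell genes Adipoq, Plin1, Lep and Retn were on the array and did not pass the filter, so they were not well above background in at least 3 of 4 pairs in either diet. The summed intensity of the 2 measured genes ran from 1361 to 2461 in squalene pools and from 1564 to 2084 in Western pools. In the lists of lipid-associated macrophage, neutrophil and endothelial markers the mean over the list was also above 0 in pair 1 alone, though not in every gene. The 7 lipid-associated macrophage markers, all measured, had 7 means below 0, and 4 of them had an unadjusted p under 0.05 on the lower side, where 1.42% of features lie. Their means over pairs 1 to 4 were 0.052, -0.66, -0.79 and -0.12, and their summed intensity ran from 5424 to 9018 in squalene pools and from 8609 to 10870 in Western pools. Gpnmb, a glycoprotein of these macrophages, gave 0.29, -1.65, -1.55 and -0.47. Of the 7, Trem2 and Spp1 were below 0 in pair 1, at -0.28 and -0.62, and above 0 in pair 4, at 0.15 and 0.32. The 5 of 8 neutrophil markers that were measured had means of 0.12, -0.18, -0.56 and -0.14, with summed intensities of 2085 to 4032 in squalene and 2614 to 3738 in Western pools. Of these, S100a8 and S100a9 were above 0 in pair 1 alone, Camp and Elane in pair 4 alone, and Retnlg in pairs 1 and 4. The 6 endothelial markers, all measured, had means of 0.20, -0.085, -0.28 and -0.033, with summed intensities of 17310 to 20460 in squalene and 18790 to 20230 in Western pools. Lyve1, Stab2 and Kdr were above 0 in pairs 1 and 4, and Cdh5, Clec4g and Pecam1 in pairs 1 and 2. The part of macrophage, neutrophil and endothelial RNA in the values of Cfd was not tested.

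Cfp encodes properdin, which stabilises the alternative convertase. Its diet ratios were 0.29, 0.49, -0.61 and -0.72 in pairs 1 to 4, with a mean of -0.14 ± 0.61 (SD, n = 4) and a 95% interval from -0.75 to 0.48. Pairs 1 and 2 were above 0 and pairs 3 and 4 below, a grouping that follows neither dye. The 7 of 9 Kupffer cell markers that were measured had means of 0.23, 0.55, -0.62 and -0.71 over the same pairs, and their summed intensity ran from 59820 to 116900 in squalene pools and from 64100 to 108400 in Western pools. Of these markers, Clec4f and Vsig4 were below 0 in pair 1, at -0.54 and -0.52, and the rest were above 0 there. Vsig4 is itself a complement receptor. The part of Kupffer cell RNA in the spread of Cfp was not tested.

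**Figure D2:**
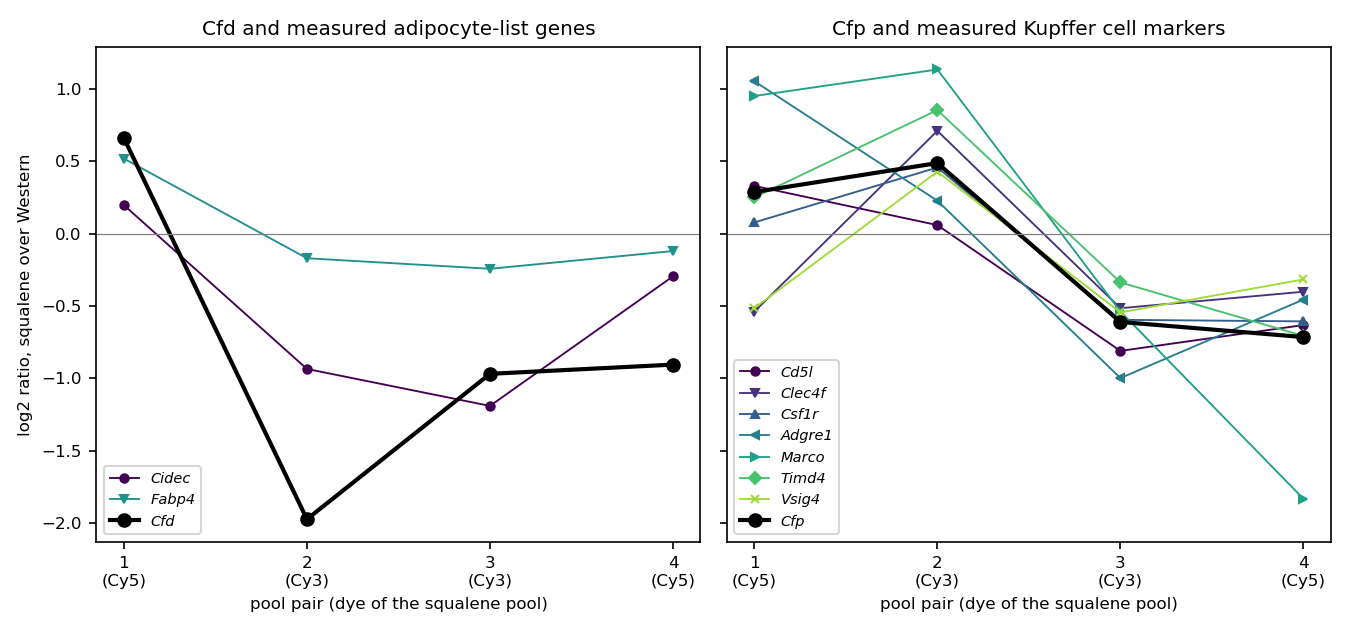
Diet ratios (log2, squalene over Western) of Cfd with the 2 measured genes of the adipocyte list (left) and of Cfp with the 7 measured Kupffer cell markers (right), by pool pair; each line is 1 gene and the black line is the complement gene. Cfd, Cidec and Fabp4 are above 0 in pair 1 alone, and Cfp lies among the Kupffer cell markers in each pair.

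The terminal genes encode the parts of the membrane attack complex. Among the 6, 4 means were above 0 and 2 below, from -0.036 to 0.14, and 0 reached an unadjusted p under 0.05. Hc, the mouse C5, had the lowest mean, with -0.27, 0.23, -0.064 and -0.038 in pairs 1 to 4. C8b, the C8 beta chain, had the highest, with -0.30, 0.097, 0.49 and 0.29 and a mean of 0.14 ± 0.34 (SD, n = 4). Without pair 4 the fitted ratio of C8b was -0.0041 and the plain mean 0.094. Without pair 1 Hc was 0.022 fitted and 0.042 as a plain mean. C6, which binds C5b, had a mean of 0.017 ± 0.56 (SD, n = 4) from -0.68, 0.37, 0.55 and -0.17, with the pairs of each dye on opposite sides of 0. The alpha and gamma chains C8a and C8g and the pore-forming C9 lay between -0.016 and 0.071.

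The 4 fluid-phase regulators had the narrowest spread of means, from -0.044 to 0.012. Cfi, the protease that degrades C3b and C4b, was the highest with 0.023, 0.24, -0.14 and -0.079 in pairs 1 to 4. C4bp, its cofactor for C4b, was the lowest with -0.28, 0.013, 0.22 and -0.13. Vtn, vitronectin, and Clu, clusterin, which both bind forming attack complexes, had means of -0.017 and -0.012 with SDs of 0.14 and 0.18. The 95% interval of Clu ran from -0.15 to 0.12.

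In the contact system, 2 means were above 0 and 2 below. F11, the protease that activates factor IX, had the highest mean of the 4, and its interval was the widest of all coagulation members. The mean was 0.12 ± 0.59 (SD, n = 4), with a 95% interval from -0.44 to 0.68. Its ratios were -0.37, -0.29, 0.90 and 0.25 in pairs 1 to 4, below 0 in the pairs on both slides and above 0 in the pairs on slide 2 alone. On slide 1 pairs 1 and 2 averaged -0.39, and on slide 2 the same pairs averaged -0.27. F12, factor XII, was the lowest with -0.19, 0.097, 0.020 and -0.18 and a mean of -0.062. Klkb1, plasma prekallikrein, and Kng1, the kininogen from which bradykinin is cut, had means of -0.034 and 0.026.

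The 6 genes grouped here as vitamin K-dependent and common pathway all had means above 0, from 0.0083 to 0.16. Of the vitamin K-dependent genes grouped elsewhere, Proc and Pros1 had means below 0, at -0.026 and -0.021, and Proz above, at 0.090. The fibrinogen chains, also grouped apart, had means below 0. F9 encodes factor IX, the protease that is missing in haemophilia B. Its log2 intensities were 11.05, 11.27, 11.32 and 11.08 in squalene pools 5 to 8 and 11.07, 10.91, 11.06 and 11.07 in Western pools 1 to 4. Squalene pools 6, 7 and 8 lay above every Western pool, pool 8 by little, and pool 5 lay below 3 of them. The diet ratios were -0.018, 0.37, 0.27 and 0.016 in pairs 1 to 4, with a mean of 0.16 ± 0.19 (SD, n = 4), a 1.12-fold higher level, SE 0.055, a 95% interval from 0.016 to 0.30, an unadjusted limma p of 0.035 and an adjusted p of 1.00. The 3 pairs above 0 include both with squalene in Cy3, and the pairs with squalene in Cy5 averaged -0.0010. Without a term for the dye the unadjusted p of F9 was 0.12. Over pairs 1 and 2 the mean was 0.17 on slide 1 and 0.18 on slide 2. The sequence before its start, at chrX:59999214-59999463 on the plus strand of GRCm38.p6, is shown because F9 is the member with the highest mean; the capitals mark the 1 match to the C/EBP-type motif TTGCNNAA, whose first base lies 24 bases before the start.
F9: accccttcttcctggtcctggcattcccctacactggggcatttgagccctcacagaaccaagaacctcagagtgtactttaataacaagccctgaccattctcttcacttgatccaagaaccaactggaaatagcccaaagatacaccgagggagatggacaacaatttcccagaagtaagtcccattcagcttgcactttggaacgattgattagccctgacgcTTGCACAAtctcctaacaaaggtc

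The other genes of this group were F2, prothrombin, with a mean of 0.051, F5, the cofactor factor V, with 0.0083, F7, which starts the tissue factor route, with 0.053, F10, whose product makes thrombin, with 0.053, and F13b, the carrier chain of the fibrin-linking factor XIII, with 0.013. F5 gave -0.28, 0.26, 0.23 and -0.18 in pairs 1 to 4, again with the dyes on opposite sides of 0. F13b gave -0.26, 0.32, 0.31 and -0.31, an even closer split.

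**Figure D3:**
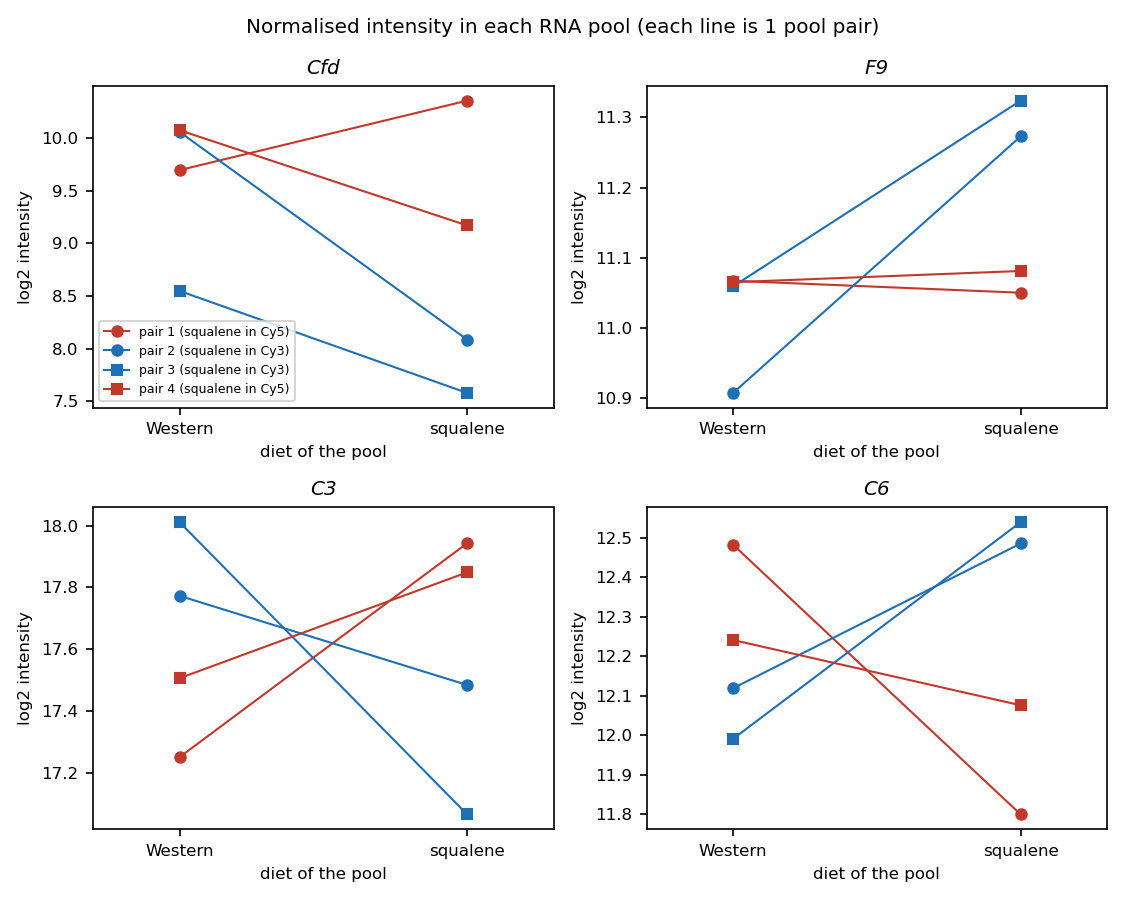
Log2 intensity after normalisation of Cfd, F9, C3 and C6 in each of the 8 RNA pools, by diet; each line joins the pools of 1 pair, red for squalene in Cy5 and blue for squalene in Cy3. The lines of Cfd fall in 3 of 4 pairs, those of F9 rise in the blue pairs, and in C3 and C6 red and blue lines run in opposite directions.

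Fga, Fgb and Fgg encode the 3 chains of fibrinogen, and all 3 means were below 0. Fgb, the highest, gave 0.55, -0.30, -0.77 and 0.30 in pairs 1 to 4 with a mean of -0.057 ± 0.60 (SD, n = 4). Fgg, the lowest, gave 0.12, 0.045, -0.75 and 0.036, so that 3 of 4 pairs were above 0 and pair 3 alone made the mean of -0.14 ± 0.41 (SD, n = 4) negative. Without pair 3 the fitted ratio was 0.062 for Fgg and 0.060 for Fgb, and the plain means were 0.068 and 0.18. Fga gave -0.29, 0.046, -0.0065 and -0.24, with a mean of -0.12 and an unadjusted limma p of 0.069. The chains did not share their signs: pair 1 was above 0 in Fgb and Fgg and below 0 in Fga. The window before the start of Fgb, at chr3:83049864-83050113 on the minus strand of GRCm38.p6, is shown as the promoter of a fibrinogen chain with a match to the same motif; the capitals mark TTGCNNAA from 80 bases before the start.
Fgb: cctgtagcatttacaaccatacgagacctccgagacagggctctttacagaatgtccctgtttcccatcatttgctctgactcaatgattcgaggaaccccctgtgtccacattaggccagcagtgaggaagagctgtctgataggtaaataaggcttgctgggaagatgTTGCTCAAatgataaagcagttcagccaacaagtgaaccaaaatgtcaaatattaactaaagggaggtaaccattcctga

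Promoter windows of 250 bases were found for 31 of the 40 genes in the RefSeq table, and 3 motifs were searched on both strands. The C/EBP-type motif TTGCNNAA occurred in 7 of the 31 genes, or 22.6%, and in 9.56% of the 32851 windows of the table. The nuclear receptor half-site AGGTCA occurred in 9 (29.0%, against 14.0%) and TATAAA in 3 (9.68%, against 12.4%). C/EBP proteins are transcription factors of hepatocytes and fat cells. A match is a description of the letters and not of binding.

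Of the 5 anticoagulant and fibrinolytic genes, 3 had means above 0 and 2 below. Proz, protein Z, a cofactor in the inhibition of factor Xa, was the highest with -0.0097, 0.20, 0.10 and 0.062 in pairs 1 to 4 and a mean of 0.090 ± 0.088 (SD, n = 4). Proc, the anticoagulant protein C, was the lowest and the least variable of all members, with -0.047, 0.023, -0.071 and -0.0089, a mean of -0.026 ± 0.042 (SD, n = 4) and a 95% interval from -0.17 to 0.11. Pros1, the cofactor protein S, Plg, plasminogen, and Cpb2, an inhibitor of fibrinolysis, had means of -0.021, 0.022 and 0.0020.

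Much of the spread of these genes followed the dye orientation. Squalene was labelled with Cy5 in pairs 1 and 4 and with Cy3 in pairs 2 and 3. The 2 orientations did not overlap in 28 of the 40 members, 9 with the Cy5 pairs higher and 19 with the Cy3 pairs higher. Over all features 48.8% did not overlap, 26.5% with Cy5 higher and 22.3% with Cy3 higher. Orientation accounted for a median of 76.0% of the sum of squares between pairs in the members and 42.6% over all features. The orientation term of the fit, positive where red was brighter than green, was larger than the diet term in 33 of 40 members, against 67.8% of features. An orientation also has its own pools, so dye and pools cannot be told apart.

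Red over green was above 0 on all 6 arrays for 6 members, C3, Mbl2, Vtn, Clu, Fgb and Kng1, where 11.2% of features were. It was below 0 on all 6 for 9 members, C6, C8a, C8g, C9, Masp2, F5, F12, F13b and Cpb2, where 8.77% were. The largest positive terms of these were 0.57 for C3, 0.48 for Kng1, 0.48 for Fgb and 0.47 for Mbl2, and the largest negative ones -0.44 for C6, -0.30 for F13b, -0.29 for C9 and -0.26 for Cpb2. In the terminal group 6 of 6 terms were below 0, beside 26 of the 40 members and 9720 of the 20658 features. The sign of such a term depends on how an array is scaled. With median centring in place of loess, 31 members had the Cy5 pairs higher without overlap and 0 the Cy3 pairs, where 61.1% of all features had Cy5 higher. The term was then below 0 in 2 of 6 terminal genes and in 2 of the 40 members. With the authors' deposited table, centred on the median, 4 members had the Cy5 pairs higher and 24 the Cy3 pairs, where 68.2% of all features had Cy3 higher. The terms of C3, Kng1, Fgb and Mbl2 were above 0 under every setting that was run.

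Spot brightness moved with this term. Of 10 members with a mean spot signal over 16 on the log2 scale, 9 had a positive term, with a median of 0.19. Of the 30 dimmer members 5 did, with a median of -0.12. Over all features the shares were 87.3% of 189 and 52.6% of 20469. The 2 probes of Kng1 went opposite ways. The brighter one, with a spot signal of 17.17, gave 0.57, -0.35, -0.56 and 0.45 in pairs 1 to 4 and a term of 0.48. The dimmer, at 13.84, gave -0.11, 0.33, 0.17 and -0.27 and a term of -0.22. Their mean diet ratios were 0.026 and 0.031. Both C3 probes, with spot signals of 17.67 and 17.20, had positive terms, 0.57 and 0.28. The part of spot brightness in these terms was not tested.

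**Figure D4:**
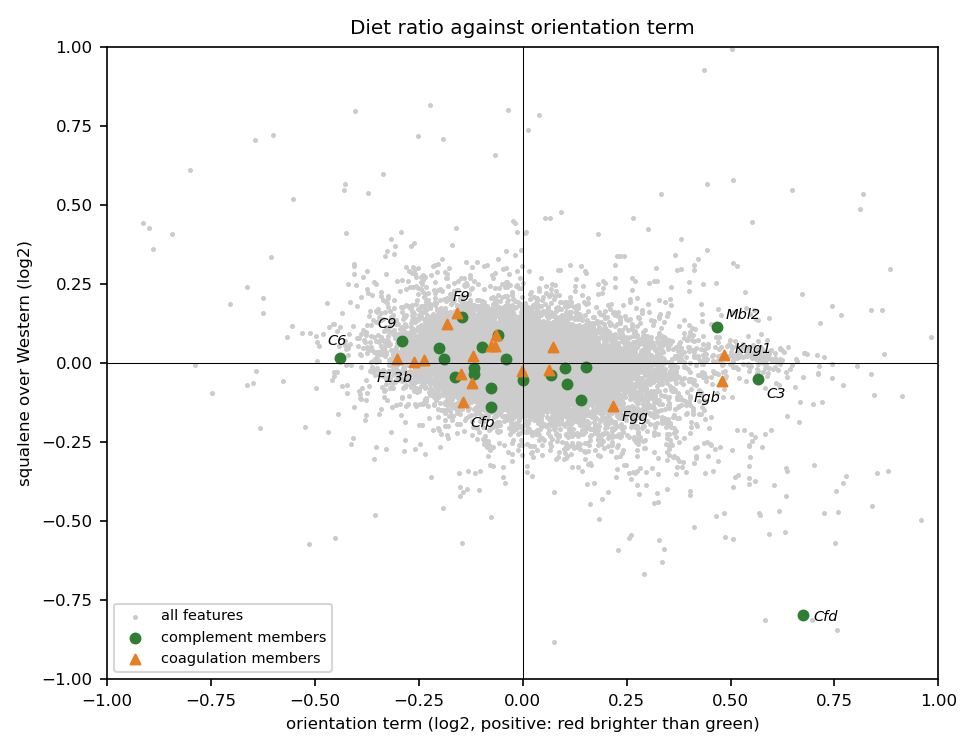
Mean diet ratio (log2, squalene over Western) against the orientation term (log2, positive where red is brighter than green) for all features in grey and the complement and coagulation genes in colour; 15 features lie outside the axes. Most coloured points spread further along the horizontal axis than along the vertical one, with C3, Kng1, Fgb and Mbl2 to the right and C6, F13b and C9 to the left.

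Of the 12 hepatocyte markers, 7 had the Cy5 pairs higher without overlap and 3 the Cy3 pairs, against 26.5% and 22.3% of all features. Among the 40 members these counts were 9 and 19. Markers and members were not matched for spot brightness. Alb, serum albumin, gave 0.57, -0.25, -0.55 and 0.24 in pairs 1 to 4, with the same signs as C3. Hp, the acute phase protein haptoglobin, gave 0.80, -0.78, -0.90 and 0.60, with a mean of -0.071.

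Of 10 members with more than 1 probe, the 11 further probes all passed the filter. A further probe had the opposite sign of the diet ratio in 3 members, C1ra, C3 and Masp2, all with values under 0.1. For Fga the second probe gave a mean of -0.23 against -0.12.

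Of 54 other genes of both cascades, 45 were measured, 14 with means above 0 and 31 below, and a median of -0.032. None passed the adjusted threshold. At an unadjusted p under 0.05 there were 2, where 2.46% of features lie, namely Plaur, the urokinase receptor, at -0.25 and C5ar2, a C5a receptor, at 0.14. Plaur gave 0.18, -0.52, -0.56 and -0.098 in pairs 1 to 4, and C5ar2 gave 0.29, -0.028, 0.019 and 0.27. Tfpi, the inhibitor of the tissue factor route, and Cpn2, a chain of carboxypeptidase N, were below 0 in all 4 pairs, with means of -0.13 and -0.093 and unadjusted p of 0.088 and 0.15 with limma. The C1q chains C1qa, C1qb and C1qc, which in liver come mainly from macrophages, had means of -0.19, -0.16 and -0.14, beside the Kupffer cell markers with a mean of -0.14. Among the genes not measured, Fcnb, Cd46, C5ar1, Plau, Serpina5 and A2m did not pass the filter, and C4a, Cfhr3 and C7 are not analysed here.

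The 12 acute phase genes had 1 mean above 0 and 11 below, with a median of -0.066. Saa1, serum amyloid A, gave 0.48, -0.69, -0.78 and -0.38, and Lcn2, lipocalin 2, gave 0.44, -0.78, -0.96 and -0.13, with a mean of -0.36 and an unadjusted limma p of 0.021. These values stand beside those of C3 and fibrinogen, which are part of the same response and whose means were -0.050 for C3 and -0.14 to -0.057 for the 3 chains.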

How the data were processed

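Total liver RNA, 200 ng per labelling, was hybridised to 2-colour Agilent arrays. Per the file headers, the authors' scanner files were made with Agilent Feature Extraction 10.7.3.1 (10.7 in the submitters' processing notes) and hold spot and background intensity per channel with marks for controls, outliers, saturation and signal above background. The deposited value table holds the authors' log10 ratios of the raw median signals. Set against the scanner files, these were equal within 0.001 for 99.93% to 99.94% of spots. Both pair 1 columns, which by range could pass for a score, were deposited by the authors as log10 ratios of raw median signals. They come from separate arrays, and 2 cells of each, too large for a log ratio, were left out. The scale and direction of the deposited table, squalene over Western, follow from the match with the scanner files. It is not centred, with column medians from -0.27 to 0.27.

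From the intensities, normexp (offset 50), loess within arrays with control spots at weight 0, and log2 ratios were computed with limma 3.58.1 in R 4.3.3. Outlier spots were left out, ratios turned to squalene over Western by the dye labels, and averages taken over the spots of each probe and then over repeat arrays. Levels per pool are log2 intensities after loess and Aquantile, comparable within a probe only. Probes well above background in at least 3 of 4 pairs in either diet, on at least 0.5 of their spots on each array of a pair (26852 of 55681), were kept, and the brightest per gene was tested. Of all probes, 26762 were named through RefSeq (GRCm38.p6), and 13311 of the 20658 features have a symbol; the arrays are annotated on mm9, per the file headers, and no coordinates were taken from them. The model had a diet effect and a dye intercept over 4 pairs, with 2 residual degrees of freedom, empirical Bayes moderation (prior 3.04) and Benjamini-Hochberg adjustment over all features. The fit was tested on simulated data. An exact sign test over 4 pairs cannot go below p = 0.125. The number of pool pairs limits the precision.

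Values are given in every pair for members with 1 sign in all 4 pairs, members with unadjusted p under 0.05 and the highest and lowest mean in each role; C6, Cfp, F13b, Fga and both Kng1 probes were named after their values were seen, as were Alb, Hp, Saa1, Lcn2, Cidec, Fabp4, Tfpi, Cpn2 and the C1q chains. Trem2, Spp1, Alas2, Clec4f, Vsig4 and the single neutrophil and endothelial markers were also named after their values were seen. The members and lists were chosen with earlier results of these data known. Alternatives tried were other background, scaling, filter, dye, slide, probe, variance and value choices, and leaving out each pair. One item examined is not reported here.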

Additional observations from a re-analysis of the deposited data

Results flagged for a closer look

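In 2 of the 40 members, 1 of 4 pool pairs stood apart from the rest. Chance flags about 1 in 20 groups in this way, so the count of 2 is not read as a result about the members. That rate takes the 4 pairs as alike, while the pairs differ in dye orientation. The diet ratio of F2, prothrombin, was -0.15 in pair 3, while the other pairs lay between 0.10 and 0.15. The diet ratio of Fgg, the fibrinogen gamma chain, was -0.75 in pair 3, while the other pairs lay between 0.036 and 0.12. Pair 3 was also where the 5 red cell markers had their lowest mean, -1.32, against -0.55 to 0.15 in the others. One of the 5, Alas2, had its highest value in pair 3, at 0.25. The lipid-associated macrophage, neutrophil, adipocyte, platelet and endothelial lists had their lowest means in pair 3 too, from -0.79 to -0.28. The hepatocyte and Kupffer cell lists did not. The part of blood RNA or RNA of other cell types in these values was not tested.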

How the results depend on the processing

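No member passed an adjusted p under 0.05 under any alternative, and the lowest adjusted p of a member was 0.59, without replicate 2. The number of features passing was 0 except for 2 with median centring and 8 with the deposited value table. At an unadjusted limma p under 0.05, 1 member, Cfd, passed with Agilent's processed signals, with median centring and with the deposited table. Features passing there numbered 692, 201 and 182. Without a filter on dim probes 4 members passed (Cfd, Colec11, F9 and Fga), beside 937 of 37146 features. Members passing numbered 0 without a dye term or with robust and trended moderation, beside 254 and 6 features. Leaving out a pair gave 0 to 2 members (F11 and Fgg without pair 2, none without pair 4), beside 1316 features without pair 2 and 365 without pair 4. Except without the filter, 20656 to 20659 features were tested. These counts are not read as results about the members. Members with 1 sign in all pairs numbered 0 with median centring and with the deposited table, 3 on slide 2 alone, and 3 to 9 over 3 pairs. A single sign is easier to reach over 3 pairs than over 4, and no share over all features is given for these counts. The median over members ran from -0.016 to 0.017 and so took either sign.

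F5 turned to -0.0023 with processed signals. With 1 pair left out, the fitted ratio, which weights both dye orientations equally, changed sign at least once in 10 of 17 named genes; the plain mean of the pairs left, an alternative added after seeing the data, did so in 9. Fitted, C3 ran from -0.21 to 0.11 (turned without pair 3 or 4), Hc from -0.11 to 0.037 (pair 1 or 3), Cfi from -0.085 to 0.11 (pair 1 or 2), C4bp from -0.096 to 0.0085 (pair 2), Mbl2 from -0.036 to 0.26 (pair 1), C8b from -0.0041 to 0.29 (pair 4), F5 from -0.017 to 0.033 (pair 4), F11 from -0.18 to 0.42 (pair 3 or 4), Fgb from -0.17 to 0.060 (pair 3 or 4) and Fgg from -0.34 to 0.062 (pair 3). The plain mean kept its sign where the fit turned for C3, C8b, F5, F11 and Fgb without pair 4, Hc without pair 3, C4bp without pair 2 and Cfi without pair 1. Cfd, F9, Mbl1, Colec11, F12, Proc and Proz kept their sign under all alternatives run, plain means included. Cfd ran from -1.19 to -0.41 fitted and from -1.28 to -0.40 as a plain mean. F9 ran from 0.13 to 0.18 fitted and from 0.088 to 0.22 as a plain mean.

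Alternatives for the orientation were chosen after seeing the data. The term ran from 0.29 to 1.17 for C3, 0.23 to 1.07 for Fgb, 0.13 to 1.06 for Kng1 and 0.32 to 0.99 for Mbl2. Members without overlap numbered 28 to 31, against 46.7% to 72.3% of features; with the deposited table it was 28, against 72.3%. The dimmer Kng1 probe had a term of -0.16 with processed signals, -0.48 with the deposited table and 0.19 with median centring, below that of the brighter one each time. The fit is itself paired, since each ratio is taken within a pool pair, and the 4 pool pairs limit the precision.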
